A study of Homo sapiens with 6 samples.

Results

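The genes described here are 8 regulators of midbrain and hindbrain identity, EN1, EN2, LMX1A, LMX1B, WNT1, PAX8, GBX2 and OTX2, among 27439 genes with reads. They were chosen by name for that known role, with earlier results of these data at hand. They were measured in 6 libraries of astrocytes made from H1, an established human embryonic stem cell line. The labels give 3 control libraries with a forebrain character and 3 libraries with a ventral midbrain character, numbered 2, 3 and 4 in each group. All 6 come from this single line, and the sources used here do not give the agents and days of the differentiation. The libraries were QuantSeq 3' end libraries of polyadenylated RNA, in which each read comes from the end of a transcript.

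In the embryo the boundary between midbrain and hindbrain, the isthmus, acts as a signalling centre. OTX2 marks the forebrain and midbrain in front of it and GBX2 the hindbrain behind it, and each represses the other. WNT1 is secreted on the midbrain side and maintains EN1 and EN2, the engrailed homeobox genes that span the boundary. The LIM homeobox genes LMX1A and LMX1B act in the ventral midbrain, where dopaminergic neurons arise, and PAX8 is a paired box factor of the isthmic region as well as of thyroid and kidney.

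The libraries held 11617935 to 15391082 estimated reads, and 3 reads, the limit that a count of 0 allows, correspond to at most 0.258 CPM (read counts scaled to the size of the library). Counting error alone enters that limit. Astrocyte genes were present in both groups, with reads for 11 of 11 listed markers and GFAP, the astrocyte intermediate filament, at 362 CPM in control and 371 CPM in ventral midbrain libraries. Of these 11 markers, AQP4, SLC1A3 and NFIA rose past edgeR's test, and with replicate numbers as a block GJA1, SOX9 and CD44 fell. Neuronal markers summed to 1252 to 1978 CPM in control and 709 to 1187 CPM in ventral midbrain libraries, and 6 mesenchymal markers to 884 to 1427 and 411 to 453 CPM. Both sums were lower in every ventral midbrain library than in any control library, and their part in the results below was not tested. Among the mesenchymal markers COL1A1 and PRRX1 fell past edgeR's test, with TWIST1 added by the block, and among the neuronal ones DCX and STMN2 fell with the block. Over all genes tested 2.15% passed edgeR's test in either direction, and 8.13% passed with the block. Most of the lower neuronal sum was STMN2, at 1061 and 449 CPM, while 4 of the 7 tested neuronal markers, SNAP25, SYT1, MAP2 and TUBB3, had positive log2 fold changes and the median of the 7 was 0.03. The labels' cell type field names embryonic stem cells while the source field names astrocytes. Of the 5 pluripotency markers POU5F1 had 0 to 4 reads per library and TDGF1 had 0, and their sum was 5.93 to 8.64 CPM in control and 3.25 to 8.70 CPM in ventral midbrain libraries, mostly DPPA4. In bulk libraries such as these, fewer cells of a type and less RNA per cell cannot be told apart.

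Both engrailed genes were higher in ventral midbrain astrocytes, with EN1 the gene of smallest p among all 15984 tested. LMX1B and WNT1 were at a few reads per control library and at 12 to 62 reads in ventral midbrain libraries, while LMX1A stood at 3 to 12 reads in all 6. PAX8 and GBX2 had higher and OTX2 lower group means, and these differences did not pass in the comparison of groups alone but did when the shared replicate numbers entered the fit as a block. All 8 genes passed the filter on low counts. With edgeR's quasi-likelihood method and Benjamini-Hochberg adjustment over all genes, 2 of the 8 had an adjusted p under 0.05, both higher and 0 lower, while 6 of the 8 had an unadjusted p below 0.05, against 12.0% of all genes. Over all genes 2.15% passed, 1.06% higher and 1.09% lower. With the replicate block 5 of the 8 passed, 4 higher and 1 lower, against 8.13% of all genes, 3.63% higher and 4.50% lower. DESeq2 called 5 of the 8 against 4.67% of all genes, limma voom 1 against 1.64%, edgeR without a filter 5 against 3.69%, and limma on the deposited normalized values 2 against 1.12%. The median log2 fold change over the 8 genes was 2.27, against 0.01 over all genes tested. The 8 were chosen with earlier results of these data known. Shares set against those of all genes, here and below, are therefore not an independent test. Same-numbered libraries deviated together, though no label says what a number marks. The adjusted p of the fit with the block, called the blocked adjusted p, is therefore given where the call differs or for comparison.

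**Figure D1:**
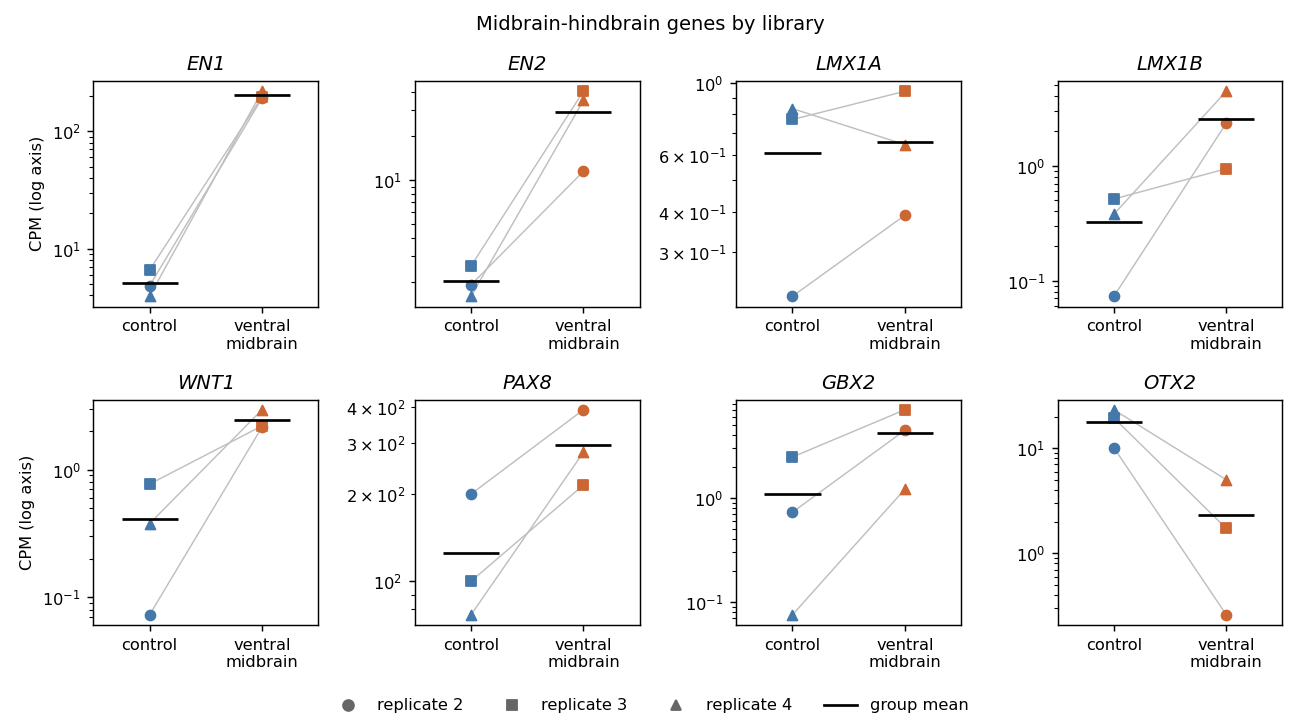
CPM on a log axis for each of the 8 genes in each library, with the replicate number as the point shape, thin lines between same-numbered libraries and a bar at each group mean. The groups do not overlap for EN1, EN2, LMX1B, WNT1, PAX8 and OTX2, and they overlap for LMX1A and GBX2.

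For 6 of the 8 genes the CPM ranges of the groups were separate, 5 higher and 1 lower in ventral midbrain, which held for 17.9% of all genes tested, 9.17% higher and 8.75% lower. Between same-numbered libraries, 7 of the 8 genes moved in a single direction in 3 of 3 pairs, against 41.5% of all genes. LMX1A was the exception.

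EN1 encodes a homeodomain transcription repressor needed for the midbrain and for the survival of dopaminergic neurons (chromosome 2, 118842171 to 118847678, minus strand, GRCh38). Replicates 2, 3 and 4 had 66, 77 and 52 reads of it in control and 2934, 2504 and 3056 in ventral midbrain. On the CPM scale the control libraries stood at 4.83, 6.59 and 3.93, and the ventral midbrain libraries at 191, 196 and 219. The lowest ventral midbrain library stood 28.9 times above the highest control library, and the 3 ventral midbrain libraries lay within 1.15-fold of each other. The group means were 5.12 ± 1.35 CPM and 202 ± 14.9 CPM (SD, n = 3), a ratio of 39.5. The log2 fold change was 5.31 ± 0.22 (SE; edgeR adjusted p = 2.3e-06). EN1 was the only one of the 8 genes that passed in each of the 17 fits made. Each control library held 52 reads or more of EN1, so none was at 0.

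Nearly all EN1 reads fell on the annotated end of the full coding transcript. A short second transcript that ends inside the gene received 0 reads in control and 6, 30 and 12 reads in ventral midbrain libraries, or 0.565% of the EN1 reads of that group. Salmon's effective length for the coding transcript, the length it uses to scale TPM, ran from 3746 to 5984 bases between libraries, above its actual 2457 bases. In the deposited normalized table, control values of EN1 were 48.8, 108 and 57.3 beside reads of 66, 77 and 52. On that table the log2 difference was 5.31 (limma on log2(value + 1), adjusted p = 1.9e-06), equal to 2 decimals to that of the read counts.

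The nearest annotated gene after EN1 is LINC01956, a long non-coding RNA that starts 7061 bases beyond the EN1 end on the same strand (chromosome 2, 118766965 to 118835110). It had 1, 0 and 0 reads in control and 52, 38 and 30 in ventral midbrain libraries. With 1 read in control the ratio was 117, with a 95% exact binomial interval of 20.6 to 4667 for counting error alone. LINC01956 passed edgeR's test (adjusted p = 0.0088). With so few control reads it passed the filter on low counts through the ventral midbrain libraries alone. Only a higher level there could thus be called, and the call is not separate support for the change of EN1.

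EN2, the engrailed paralog more prominent in the later midbrain and cerebellum, has a single annotated transcript (chromosome 7, 155458129 to 155464831, plus strand, GRCh38). The letters before its start are shown beside those of OTX2, since the group means of the pair moved in opposite directions. The change of OTX2 did not pass edgeR's test on groups alone. Each run holds the 250 bases before the start of transcription from RefSeq's GRCh38.p14 table, on the gene's own strand, at chr7:155457879-155458128 for EN2 and chr14:56810480-56810729 for the longer OTX2 transcripts. Capitals mark CpG dinucleotides, the site of DNA methylation.
EN2: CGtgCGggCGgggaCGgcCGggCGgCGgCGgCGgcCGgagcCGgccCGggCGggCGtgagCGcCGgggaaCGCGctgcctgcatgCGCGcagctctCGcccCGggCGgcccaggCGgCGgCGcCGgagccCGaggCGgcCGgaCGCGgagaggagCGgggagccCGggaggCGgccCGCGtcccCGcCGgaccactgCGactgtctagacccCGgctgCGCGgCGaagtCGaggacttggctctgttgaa
OTX2: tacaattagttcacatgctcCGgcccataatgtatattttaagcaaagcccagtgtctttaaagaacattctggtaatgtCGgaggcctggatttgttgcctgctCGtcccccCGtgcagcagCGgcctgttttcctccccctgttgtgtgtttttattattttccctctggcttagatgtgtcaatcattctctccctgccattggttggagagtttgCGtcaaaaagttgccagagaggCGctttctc

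The EN2 run holds 45 CpG and the OTX2 run 7. Over the 300-base windows of that table, which add 50 bases after the start, EN2 had 50 CpG, at the 99.0 percentile of 35116 windows. The OTX2 window shown had 9, at the 43.6 percentile, and its other window had 6. The median window had 14. Of the genes with higher group means, LMX1B had 42, GBX2 36, WNT1 34 and PAX8 13. LMX1A, whose groups overlapped with nearly equal means, had 32 and 25 in its windows. A link of CpG count to direction was not tested. RefSeq windows were matched for 7 of the 8 genes, 9 windows in all, with none for EN1. No window of these 9 held TAATCC (the OTX motif), TAATTA (engrailed and LIM homeodomain), CTTTGAT (TCF/LEF) or GACCACCCA (GLI) on either strand, while 6.36%, 4.84%, 2.62% and 0.236% of all windows did. These letters being absent says nothing of the factors, which can bind elsewhere.

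EN2 had 26, 30 and 21 reads in control and 176, 517 and 490 in ventral midbrain libraries, or 1.90, 2.57 and 1.59 CPM against 11.4, 40.5 and 35.1 CPM. The groups did not overlap, and ventral midbrain replicate 2 stood apart, 4.46 times above the highest control library and 3.54 times below the highest ventral midbrain library. Mean levels were 2.02 ± 0.50 and 29.02 ± 15.5 CPM (SD, n = 3), and the log2 fold change was 3.84 ± 0.49 (SE; edgeR adjusted p = 0.0062). The call was lost without control replicate 2 (adjusted p = 0.057), without control replicate 4 (adjusted p = 0.062) and with limma voom (adjusted p = 0.084).

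The order of the paralogs in control libraries depended on the scale. In TPM, which divides by effective length, EN1 was at 0.378 ± 0.224 and EN2 at 0.441 ± 0.166 in control (SD, n = 3), and at 15.3 ± 2.80 and 6.63 ± 3.45 in ventral midbrain libraries. EN1 stood above EN2 in TPM in 3 of 3 ventral midbrain libraries, by 4.62, 1.84 and 2.05 times, and in 1 of 3 control libraries. The long effective length given to EN1 lowers its TPM, so this order in control is uncertain. In reads not divided by length, EN1 was above EN2 in 3 of 3 control libraries, at 66 and 26, 77 and 30, and 52 and 21 reads. It was also above EN2 in 3 of 3 ventral midbrain libraries on that scale.

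A pair of genes lies within 10000 bases after the EN2 end, on the opposite strand. CNPY1 encodes a protein of FGF signalling at the isthmus, and AC009403.2 is a non-coding gene that overlaps CNPY1 on its strand, so Salmon's division of reads between them is uncertain. AC009403.2 passed, with 0.399 CPM in control and 5.99 CPM in ventral midbrain libraries (log2 fold change 3.85 ± 0.70; edgeR adjusted p = 0.019). It passed the filter on low counts through the ventral midbrain libraries alone, so only a higher level there could be called. CNPY1 had 0, 5.62 and 0 estimated reads in control and 9.62, 71.7 and 26.4 in ventral midbrain libraries, and was left out of the test by the filter on low counts. In all 3 genes, EN2, CNPY1 and AC009403.2, each ventral midbrain library exceeded each control library, which held for 9.17% of all genes tested. For CNPY1 the margin was narrow, at 0.513 CPM in control replicate 3 and 0.650 CPM in ventral midbrain replicate 2. As CNPY1 and AC009403.2 may share reads, the 3 genes are not separate observations. Of the 15 genes annotated within 10000 bases of one of the 8, 3 were tested, and the third, PSD4 beside PAX8, had 8.56 CPM in control and 4.42 CPM in ventral midbrain libraries (edgeR adjusted p = 0.27).

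**Figure D2:**
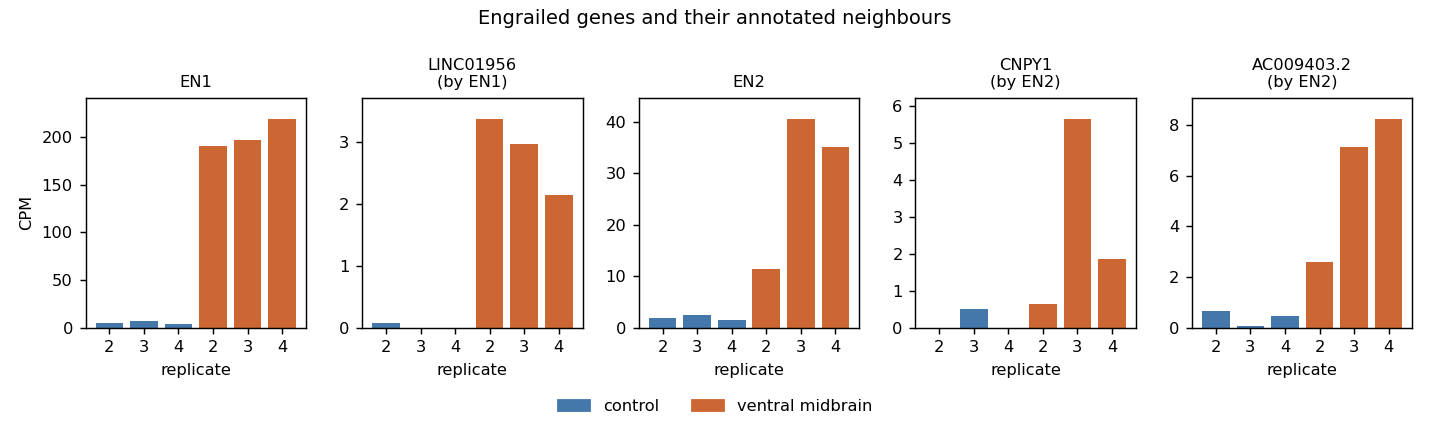
CPM in each library (bars, linear axes from 0, each panel with its own scale) for EN1, EN2 and 3 genes annotated within 10000 bases of them, with control in blue and ventral midbrain in orange. LINC01956 is at 0 CPM in 2 control libraries and at 2.15 to 3.38 CPM in ventral midbrain libraries.

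WNT1, the secreted ligand of the isthmus (chromosome 12, 48978453 to 48981676), had 1, 9 and 5 reads in control and 33, 28 and 41 in ventral midbrain libraries. These were 0.0732, 0.770 and 0.378 CPM against 2.15, 2.20 and 2.94 CPM. The lowest ventral midbrain library was 2.79 times above the highest control. The log2 fold change of 2.57 ± 0.78 did not pass (SE; edgeR adjusted p = 0.16, blocked adjusted p = 0.053), whereas DESeq2 called it (adjusted p = 0.038). At 1 to 9 control reads the spread of WNT1 between control libraries was 10.5-fold, against 1.37-fold between ventral midbrain libraries.

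LMX1B, a LIM homeodomain factor of the isthmus and of dopaminergic progenitors (chromosome 9, 126614443 to 126701032), had 1, 6 and 5 reads in control and 36, 12 and 62 in ventral midbrain libraries. The control values of 0.0732, 0.513 and 0.378 CPM lay below the ventral midbrain values of 2.34, 0.941 and 4.44 CPM, without overlap. The difference, 2.99 ± 0.86 on the log2 scale, did not pass (SE; edgeR adjusted p = 0.13, blocked adjusted p = 0.063), and DESeq2 called it (adjusted p = 0.023). All LMX1B reads fell on the pair of coding transcripts that share their end, which 3' end reads cannot separate.

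LMX1A, the related factor that sets dopaminergic fate in the floor plate (chromosome 1, 165201867 to 165356715), showed no such separation. It had 3, 9 and 11 reads in control and 6, 12 and 9 in ventral midbrain libraries, or 0.219 to 0.832 and 0.390 to 0.941 CPM. The groups overlapped, and the log2 fold change was 0.11 ± 0.86 (SE; edgeR adjusted p = 0.98). With so few reads 1 standard error alone spans changes of close to 2-fold in either direction. LMX1B, with a standard error of 0.86 too, did not pass at a log2 fold change of 2.99. Even a large difference in LMX1A could thus go uncalled at this depth. The difference between the changes of LMX1A and LMX1B was not tested.

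PAX8 (chromosome 2, 113215997 to 113278950) had the highest TPM of the 8 in all 6 libraries. The control libraries had 2735, 1169 and 1013 reads of it, and the ventral midbrain libraries 6014, 2740 and 3893. In CPM these were 200.1, 100.02 and 76.6 against 391, 215 and 279. Replicate 2 was the highest library in each group, and the groups touched closely, with the lowest ventral midbrain library 1.07 times the highest control library. The log2 fold change of 1.23 ± 0.40 did not pass (SE; edgeR adjusted p = 0.25). With the replicate block it was 1.31 ± 0.16 and passed (SE; edgeR adjusted p = 0.00038), the paired log2 differences running from 0.97 to 1.86. PAX8 also passed without control replicate 2 (adjusted p = 0.023) and with DESeq2 (adjusted p = 0.0069).

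PAX8 reads came from 2 main transcript ends. The shared end of 5 coding transcripts took 89.2% of the reads in control and 88.3% in ventral midbrain libraries. An annotated retained-intron transcript that ends inside the gene, at position 113225597, took 10.8% and 11.6%, with 242, 145 and 143 reads in control and 402, 401 and 665 in ventral midbrain. By library that end took 8.85% to 14.1% in control and 6.69% to 17.1% in ventral midbrain, ranges that overlap. PAX8-AS1, which overlaps PAX8 on the other strand, held 9 reads over the control and 7 over the ventral midbrain libraries, few against those of PAX8. Markers of other tissues that express PAX8 were low, with 7 listed thyroid, kidney and ear genes summing to 2.05 to 2.85 CPM in control and 1.02 to 3.08 CPM in ventral midbrain libraries.

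GBX2, the hindbrain partner of OTX2 (chromosome 2, 236165236 to 236168369), had 10, 29 and 1 reads in control and 69, 90 and 17 in ventral midbrain libraries. At 0.732, 2.48 and 0.0756 CPM against 4.49, 7.06 and 1.22 CPM the groups overlapped, with ventral midbrain replicate 4 below control replicate 3. The log2 fold change of 1.96 ± 0.98 did not pass (SE; edgeR adjusted p = 0.49). Within each group replicate 3 was the highest and replicate 4 the lowest, and with the block the change was 2.32 ± 0.57 (SE; edgeR adjusted p = 0.022). Control replicate 4 rests on 1 read.

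OTX2, the homeobox gene of forebrain and midbrain (chromosome 14, 56799905 to 56810479), had 138, 227 and 307 reads in control and 4, 22 and 70 in ventral midbrain libraries. In CPM it was at 10.1, 19.4 and 23.2 against 0.260, 1.72 and 5.01. The lowest control library was 2.01 times the highest ventral midbrain library, and within ventral midbrain the libraries differed 19.3-fold. The log2 fold change was -2.92 ± 0.89 (SE; edgeR adjusted p = 0.24). With the replicate block it was -3.28 ± 0.44 and passed (SE; edgeR adjusted p = 0.0014), and replicate 2 was the lowest and replicate 4 the highest library of each group. All OTX2 reads fell on the end of the longest transcript. Markers of choroid plexus, a tissue that expresses OTX2, summed to 0.303 to 3.25 CPM in control and 0.706 to 0.845 CPM in ventral midbrain libraries, and TTR, its most abundant transcript, had 0 reads in all 6. Of the listed markers of retinal pigment epithelium, another OTX2 tissue, 4 were tested and 0 passed with edgeR, with DESeq2 or with voom, and 0 had an unadjusted p below 0.05.

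**Figure D3:**
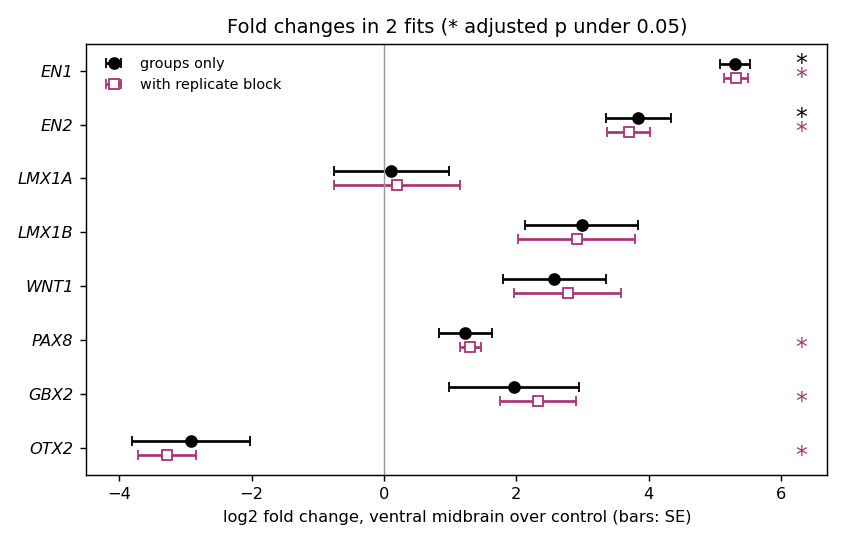
Log2 fold change (ventral midbrain over control) of each gene with its SE, from the fit on groups only (filled circles) and the fit with the replicate block (open squares), an asterisk marking adjusted p under 0.05. EN1 and EN2 carry an asterisk in both fits, and PAX8, GBX2 and OTX2 in the blocked fit alone.

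Set against each other on the TPM scale, OTX2 exceeded GBX2 in 3 of 3 control libraries. The values were 1.99 and 0.236 TPM, 4.06 and 1.17 TPM, and 3.81 and 0.0244 TPM for OTX2 and GBX2 in control replicates 2, 3 and 4. In ventral midbrain replicates 2 and 3 GBX2 was above OTX2, at 1.45 and 0.0581 TPM and at 2.13 and 0.342 TPM. In ventral midbrain replicate 4 OTX2 remained above GBX2, at 1.12 and 0.579 TPM. For control replicates the log2 ratio of OTX2 to GBX2 was 3.08, 1.79 and 7.29, and for ventral midbrain replicates it was -4.64, -2.64 and 0.95, without overlap. Among the ventral midbrain libraries, EN1 CPM thus varied 1.15-fold and OTX2 CPM 19.3-fold.

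**Figure D4:**
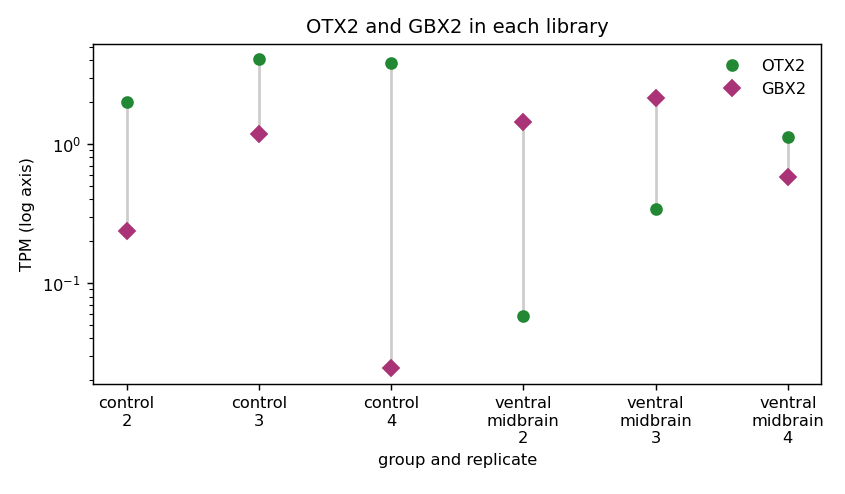
TPM on a log axis of OTX2 (circles) and GBX2 (diamonds) in each library, with a line joining the pair. OTX2 is the higher in the 3 control libraries and in ventral midbrain replicate 4, and GBX2 in ventral midbrain replicates 2 and 3.

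By mean TPM in ventral midbrain libraries the order was PAX8 at 80.5 ± 30.1, EN1 at 15.3 ± 2.80, EN2 at 6.63 ± 3.45, GBX2 at 1.39 ± 0.777, WNT1 at 0.650 ± 0.279, LMX1B at 0.547 ± 0.439, OTX2 at 0.508 ± 0.551 and LMX1A at 0.184 ± 0.0596 (SD, n = 3). In TPM the libraries of PAX8, EN1 and EN2 did not overlap with those of the next gene in this order. From GBX2 downwards neighbours in the order overlapped. As each read came from the end of a transcript, division by length can itself shift an order between genes. By mean CPM in ventral midbrain libraries LMX1B, at 2.57, stood above WNT1, at 2.43. The long effective length given to EN1 lowers its TPM, so its distance from PAX8 depends on the scale. In CPM the ventral midbrain libraries of PAX8, at 391, 215 and 279, overlapped with those of EN1, at 191, 196 and 219. In control libraries the order was PAX8 at 30.8 ± 16.3 and OTX2 at 3.29 ± 1.13, and the other 6 genes had means between 0.0616 and 0.478 TPM. OTX2 thus held the second place in control and the seventh in ventral midbrain libraries.

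The other regulators of the isthmus and midbrain were for the most part scarce. Of 19 listed genes 9 were tested, with 0 higher and 1 lower past edgeR's test, against 2.15% of all genes in either direction. An unadjusted p below 0.05 was found for 4 of the 9, DESeq2 called 4 and voom called 1. Their median log2 fold change was 0.24 against 0.01 over all genes. FGF8, the organiser's signal, had 2 reads in a single control library and 0 in the other five, FGF17 had 4 reads in a single ventral midbrain library, and PAX2 and PAX5 had 0 to 3 reads per library. MEIS2, a homeobox cofactor of the midbrain roof and of the forebrain, fell from 61.9 to 30.1 CPM (log2 fold change -1.04 ± 0.19; edgeR adjusted p = 0.018). POU4F1, a factor of midbrain neurons, was at 0.114 and 2.13 CPM (edgeR adjusted p = 0.091, blocked adjusted p = 0.033). GATA2, of ventral midbrain GABAergic precursors, was at 0.276 and 2.43 CPM (edgeR adjusted p = 0.18). SP8, a zinc finger factor of the isthmus and of the forebrain, was at 30.3 and 7.58 CPM (log2 fold change -1.99 ± 0.56; edgeR adjusted p = 0.19), also without overlap of the groups.

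Of 12 floor plate genes 5 were tested and NKX6-1, a ventral homeobox gene, rose. It was the only call of the 5, against 2.15% of all genes in either direction. It had 5, 6 and 8 reads in control and 43, 78 and 146 in ventral midbrain libraries (log2 fold change 3.68 ± 0.60; edgeR adjusted p = 0.011). NKX6-1 passed the filter on low counts through the ventral midbrain libraries alone, so only a higher level there could be called. FOXA2, which defines the floor plate, had 1, 3 and 0 reads in control and 0, 16 and 0 in ventral midbrain libraries, and CORIN had 0 in all 6. The sums of the floor plate list were 49.9 to 71.0 CPM in control and 64.2 to 74.6 CPM in ventral midbrain libraries, which overlap.

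Among targets of the isthmic signals 1 gene passed, of the WNT list. Of 11 FGF response genes, which include the feedback inhibitors SPRY1, SPRY2, SPRY4 and DUSP6, 0 passed edgeR's test, 0 had an unadjusted p below 0.05, and DESeq2 and voom called 0. Their median log2 fold change was -0.03. SPRY2 was at 49.3 and 70.4 CPM (edgeR adjusted p = 0.63, blocked adjusted p = 0.019). Of 10 tested WNT response genes, NKD2, an inhibitor induced by the pathway, rose from 4.15 to 16.95 CPM (log2 fold change 2.02 ± 0.32; edgeR adjusted p = 0.010). It was the only 1 of the 10 past edgeR's test, against 2.15% of all genes, while 4 had an unadjusted p below 0.05, DESeq2 called 2 and voom called 1. The median log2 fold change of these 10 was 0.62, with 8 of 10 positive. TCF7, a nuclear effector, was at 9.77 and 4.60 CPM (edgeR adjusted p = 0.16, blocked adjusted p = 0.034), and the general WNT target AXIN2 was at 16.8 and 19.6 CPM (edgeR adjusted p = 0.81). ZNRF3 and LEF1, the remaining genes with an unadjusted p below 0.05, had higher means. ZNRF3 was at 43.7 and 91.3 CPM (edgeR adjusted p = 0.058, blocked adjusted p = 0.088). LEF1 was at 3.44 and 7.15 CPM (edgeR adjusted p = 0.21, blocked adjusted p = 0.11).

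Of 12 genes of the anterior hindbrain, the GBX2 side of the boundary, 2 could be tested. With edgeR 0 passed, 0 had an unadjusted p below 0.05, and DESeq2 and voom called 0. EGR2, a segmentation gene of the hindbrain, was at 1.21 and 0.432 CPM (edgeR adjusted p = 0.53). HOXB1 and GBX1 had 0 reads in all 6 libraries, and HOXA2, HOXB2, HOXA3 and HOXB3 had at most 6 in any library. Among the paralogs of the 8 genes, OTX1 alone could be tested, at 8.66 and 5.78 CPM (edgeR adjusted p = 0.75).

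The genes most like each of the 8 were found by the root mean square difference of centred log2 CPM over the 6 libraries, among 12398 or 12399 protein-coding genes. EN2 was the nearest to EN1, at 1.01, followed by BRINP2 at 1.17. NKX6-1 and FAM198B were nearest to EN2, at 0.44 and 0.48. ADCYAP1R1, a neuropeptide receptor, was nearest to LMX1B at 0.36 and second to WNT1 at 0.37, after CELF3 at 0.31. IGFBP5 followed PAX8 at 0.17, with 1125, 575 and 601 CPM in control and 2318, 1516 and 1860 CPM in ventral midbrain libraries, just behind GBP5, also at 0.17. VGF was nearest to GBX2 at 0.50, with its lowest library in each group in replicate 4. NSG2, a neuronal membrane protein gene, was nearest to OTX2 at 0.51, with 1.90, 4.79 and 7.71 CPM in control and 0.065, 0.235 and 1.93 CPM in ventral midbrain libraries. For LMX1A the nearest were C2CD2L and EGFL8, both at 0.10, with neither passing edgeR's test (adjusted p = 0.94 and 0.93). EGFL8 shares sequence with the readthrough gene PPT2-EGFL8, so its counts are uncertain. These distances describe 6 libraries in 2 groups, and any gene with a like group difference scores well.

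**Figure D5:**
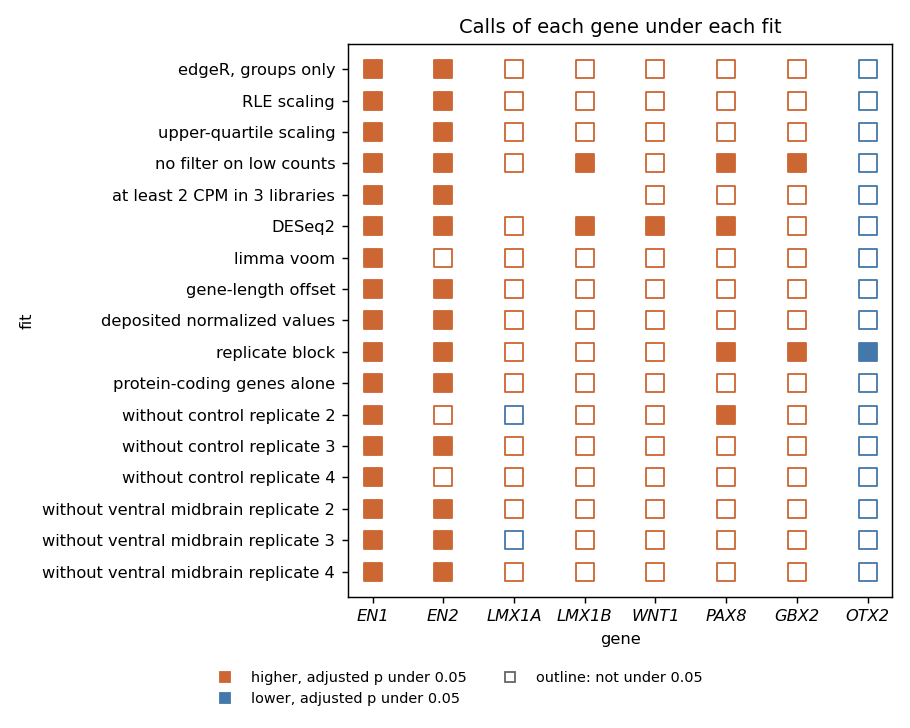
Calls of each of the 8 genes (columns) under each of 17 fits (rows), orange for higher and blue for lower in ventral midbrain, filled where the adjusted p was under 0.05, with no square where a gene was not tested. EN1 is filled in every row and EN2 in 14 of 17, and OTX2 in the row of the replicate block alone.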

How the data were processed

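Per the submitters' processing notes, the tools were Salmon, without a version, and DESeq2 1.27.12, on GRCh38.p13. The deposited files give, per library, Salmon's estimated counts, TPM and effective lengths for 226608 transcripts. A further deposited file holds normalized signal values of 21509 genes, and the sources used here do not state how the authors scaled them.

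Estimated counts were summed per gene with GENCODE 29 (GRCh38), which matched 90.6% of transcripts by identifier and all 36 annotated transcripts of the 8 genes. Unmatched transcripts held 0.992% to 1.12% of a library's reads. Sums were rounded. CPM uses the TMM-scaled library size. edgeR 4.0.16 in R 4.3.3 (quasi-likelihood, robust, filterByExpr, TMM) tested ventral midbrain against control over 15984 genes, of which 344 passed at an adjusted p under 0.05. The SE was taken from the F statistic, as the size of the log2 change over its square root. The fits tried besides used upper-quartile or RLE scaling, no filter, 2 CPM in 3 libraries, DESeq2 1.42.0, limma 3.58.1 (voom, and log2(value + 1) of the deposited values), a gene-length offset, a replicate block, protein-coding genes alone, an adjusted p under 0.01 and leaving out each library. Transcripts whose ends lie within 50 bases were pooled and not tested, since Salmon's division of reads between them is uncertain. The sources used here do not say if reads were assigned by strand, so overlapping and antisense genes are uncertain.

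Deviations from the group means correlated at 0.234, 0.345 and 0.204 between same-numbered libraries, and at 0.0237 or below between libraries of different number. Deviations within a group cancel out, so positive values between same-numbered libraries force the values between the others to be negative on average. The contrast between these values is therefore in part fixed by the arithmetic. The pairing comes from these values alone, as no label says what a number marks, and the block is an alternative fit. The labels also do not say that libraries came from separate cultures, so p-values measure the spread between these libraries.

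The genes and lists were chosen with earlier results of these data known. Named genes are the 8, the members of 15 lists past the test with or without the block (otherwise up to 3 of the highest level), the 2 most similar protein-coding genes with an average log2 CPM of at least 1, and annotated neighbours. FGF8, FGF17, PAX2, PAX5, GATA2, SP8, FOXA2, CORIN, AXIN2, GBX1, HOXB1, HOXA2, HOXB2, HOXA3 and HOXB3 were named for their roles after their values were seen. ZNRF3 and LEF1 were named for an unadjusted p below 0.05 in edgeR's test. The method was tested on simulated counts of this comparison (15776 genes): it found 42% of the 100 genes given a 2-fold change and 97% of the 100 given a 4-fold change, with 4.79% of 146 calls false. All genes given a change had an average log2 CPM of at least 2. Their simulated spread followed the trend over level, not that of each gene. LMX1A, LMX1B, WNT1 and GBX2 lie below that level, at -0.37, 0.69, 0.66 and 1.50, so these rates do not cover them. Some list members are not reported here. A planned comparison of protein sequences was not made. Figures were drawn with matplotlib 3.10.9.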

Additional observations from a re-analysis of the deposited data

How the results depend on the processing

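The direction of EN1, EN2, LMX1B, WNT1, PAX8, GBX2 and OTX2 was kept in every fit that tested them, and LMX1A changed sign without control replicate 2 (-0.29 on the log2 scale) and without ventral midbrain replicate 3 (-0.22), its values with 1 library left out running from -0.29 to 0.41. The filter of 2 CPM in 3 libraries left LMX1A and LMX1B untested. Of the 8 genes, 2 passed edgeR's test, 5 with no filter (LMX1B, PAX8 and GBX2 besides the engrailed genes), 5 with DESeq2 (LMX1B, WNT1 and PAX8 besides them), 5 with the replicate block, 1 with limma voom, and 1 to 2 with 1 library left out. Over all genes the count of 344 became 1012 with no filter, 747 with DESeq2, 174 with a gene-length offset, 1300 with the replicate block and 102 at an adjusted p under 0.01, and it ran from 131 to 258 with 1 library left out, the lowest being without control replicate 4. The cause of these shifts was not tested, apart from the stricter threshold. The adjusted p of OTX2 ran from 0.057 to 0.53 and that of GBX2 from 0.18 to 0.81 with 1 library left out. Depth limits LMX1A, LMX1B, WNT1 and GBX2, each with a library of 1 to 3 reads.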

Other observations

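The list of dopaminergic neuron genes, the cells for which LMX1A, LMX1B and EN1 are best known, had 3 of 9 members with enough reads to be tested. Of these 3, 1 was higher and 1 lower past edgeR's test, against 1.06% and 1.09% of all genes. KCNJ6, a potassium channel gene of midbrain dopaminergic neurons, rose from 1.20 to 6.92 CPM (edgeR adjusted p = 0.016), and CALB1, a calcium-binding protein gene, fell from 65.8 to 9.22 CPM (log2 fold change -2.84 ± 0.33; edgeR adjusted p = 0.0040). TH, the enzyme that defines dopamine synthesis, had 0, 0 and 8 reads in control and 1, 0 and 0 in ventral midbrain libraries. NR4A2 was at 18.2 and 15.6 CPM (edgeR adjusted p = 0.82).

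TFAP2B, a factor of neural crest and of midbrain neurons, was at 0.319 CPM in control and 4.34 CPM in ventral midbrain libraries (edgeR adjusted p = 0.069, blocked adjusted p = 0.0039). It had 0, 5 and 7 reads in control and 33, 40 and 108 in ventral midbrain libraries, without overlap. SOX10, which defines neural crest, had 0 reads in all 6 libraries.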
